A study of Mus musculus with 6 samples.

Results

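A set of 10 genes for plasma proteins that hepatocytes secrete was followed across 6 RNA sequencing libraries of mouse distal colon. The members are the rows of the deposited count table named Alb, Ttr, Apoa1, Apoa2, Apoc3, Fga, Fgb, Fgg, Ambp and Ahsg, 10 of 54532 genes, and each name stood on a single row. The set was chosen because reads of Alb and Apoa1 varied between libraries, so the values of those 2 genes are given as a description and without a test. All mice, whether of the genotype labelled WT or labelled Itgbl1 -/-, drank DSS (dextran sulfate sodium, a polymer that injures the colonic epithelium) at 3% for 7 days, and 3 libraries of each label (WT 1 to WT 3, KO 1 to KO 3) were sequenced after selection of poly-A RNA. The labels give 1 batch date for all 6 libraries. The labels leave out age, sex, strain and how the Itgbl1 allele was made, and only replicate numbers tell the libraries apart. The p-values therefore speak of the spread among libraries, which may be technical.

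Plasma proteins of this kind are made mainly by hepatocytes and carried by blood. Albumin is the most abundant of them and binds fatty acids and hormones, transthyretin carries thyroid hormone and, through retinol-binding protein, vitamin A, and the apolipoproteins coat lipoprotein particles. Fibrinogen is built from 3 chains encoded by a gene cluster and is cleaved by thrombin to form fibrin. Its genes belong to the acute phase response of hepatocytes to interleukin 6 and STAT3. Some members are also transcribed outside the liver: Apoa1 and Apoc3 in the absorptive cells of the small intestine, and Ttr in the choroid plexus and in islet endocrine cells.

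Totals ran from 13326970 to 18321389 counts per library. Itgbl1 had 19, 6 and 5 reads across WT 1 to WT 3, against 12, 4 and 10 across KO 1 to KO 3, with a log2 ratio of -0.19 (edgeR adjusted p = 0.9). These counts show no clear loss under the knockout label, but they are few under both labels and cannot settle the genotype. Every direction below is between libraries as labelled. KO 3 stood apart with 12.8% of its counts from mitochondrially encoded genes, against 3.53 to 4.88% in the other libraries. Lypd8, a marker of absorptive colonocytes, was at 12710 to 16480 CPM in the libraries labelled wild-type and at 753.3, 5999 and 14.8 CPM across KO 1 to KO 3, so this marker of the labelled tissue was nearly absent from KO 3. CPM are counts scaled to a common library size after TMM scaling, a correction for differences in composition between libraries.

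Coordinates are those of the deposited table (GRCm38), in which 2 groups of members are neighbours. Fgg (chromosome 3, 83007724 to 83015049, plus strand), Fga (83026076 to 83033627, plus) and Fgb (83040141 to 83049863, minus) form the fibrinogen cluster, with 11026 bases between Fgg and Fga and 6513 between Fga and Fgb. Apoa1 (chromosome 9, 46228580 to 46230466, plus) and Apoc3 (46232933 to 46235636, minus) are 2466 bases apart. Alb is on chromosome 5 (90460897 to 90476602, plus), Apoa2 on chromosome 1 (171225054 to 171226379, plus), Ambp on chromosome 4 (63143275 to 63154799, minus) and Ahsg on chromosome 16 (22891277 to 22899449, plus). In GENCODE M21 Fgg, Ahsg and Ttr overlap a predicted gene on the opposite strand, and without a stated strand setting the reads of such partners cannot be told apart.

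Promoters of Alb and of the fibrinogen genes are shown because the ratio of fibrinogen reads to Alb reads was far higher in KO 1 than in WT 1, KO 2 and KO 3. Each window is the RefSeq sequence (GRCm38.p6) from 250 bases before to 50 bases after the RefSeq start, read along the gene: chr5:90460620-90460919 (plus) for Alb, chr3:83025903-83026202 (plus) for Fga, chr3:83049814-83050113 (minus) for Fgb and chr3:83007474-83007773 (plus) for Fgg. Capitals mark matches on either strand to the letters TTCNNNGAA, a STAT site.
Alb: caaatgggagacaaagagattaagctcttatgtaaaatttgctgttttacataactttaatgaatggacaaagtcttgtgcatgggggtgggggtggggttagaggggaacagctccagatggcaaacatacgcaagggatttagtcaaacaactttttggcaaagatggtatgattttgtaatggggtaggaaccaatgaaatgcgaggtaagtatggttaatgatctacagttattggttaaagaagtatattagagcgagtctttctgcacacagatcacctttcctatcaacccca
Fga: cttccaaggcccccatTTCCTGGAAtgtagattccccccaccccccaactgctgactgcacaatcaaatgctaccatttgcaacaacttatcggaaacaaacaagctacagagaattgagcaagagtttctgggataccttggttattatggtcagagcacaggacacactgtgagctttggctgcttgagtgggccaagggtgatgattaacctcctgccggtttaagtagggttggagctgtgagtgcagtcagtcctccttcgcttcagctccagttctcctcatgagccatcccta
Fgb: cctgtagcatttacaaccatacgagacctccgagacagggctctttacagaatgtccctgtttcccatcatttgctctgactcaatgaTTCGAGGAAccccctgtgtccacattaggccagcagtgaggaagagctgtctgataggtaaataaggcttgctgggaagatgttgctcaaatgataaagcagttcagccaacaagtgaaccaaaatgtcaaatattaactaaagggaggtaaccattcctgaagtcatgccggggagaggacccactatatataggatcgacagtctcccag
Fgg: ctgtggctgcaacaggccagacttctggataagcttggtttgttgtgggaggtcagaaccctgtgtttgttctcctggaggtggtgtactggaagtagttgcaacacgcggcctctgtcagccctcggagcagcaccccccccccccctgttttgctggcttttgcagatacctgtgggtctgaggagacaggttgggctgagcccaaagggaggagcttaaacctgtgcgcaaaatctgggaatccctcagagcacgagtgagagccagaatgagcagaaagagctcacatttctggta

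Fga and Fgb each had a STAT match, whose first base was 234 and 162 bases before the start. Alb and Fgg did not have these letters in their windows. Of 8 member windows read (Ambp, Ahsg, Apoa1 and Apoa2 with those above), 2 held the STAT letters, while 8.3% of the 32851 promoter windows read did. For Ambp and Ahsg the RefSeq start lay 627 and 738 bases from the deposited gene start, which their windows therefore did not cover. The TATA box letters TATAAA, which do not overlap these matches, were found in 1 member window (Apoa2, 212 bases before the start) and in 13.6% of all. The HNF4 letters CAAAGTCCA and the C/EBP letters TTGCGCAA were in no member window and in 0.475% and 0.183% of all. A match is a description of letters and not of binding.

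All members together were most abundant in KO 2 and KO 3. Their summed level was 87.1, 14.2 and 12.8 CPM across WT 1 to WT 3, against 100.4, 854.2 and 777.7 CPM across KO 1 to KO 3. This sum averaged 38.0 ± 42.5 CPM (SD, n = 3) for the wild-type label, against 577.4 ± 414.9 CPM (SD, n = 3) for the knockout label. Without WT 1 the wild-type mean was 13.5 CPM. WT 1 and KO 1 lay close together, and KO 1 was far below the other libraries of its label. The members took 0.0855% of all counts in KO 2, the highest share. In bulk tissue, fewer cells of a type and less RNA per cell cannot be told apart.

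**Figure D1:**
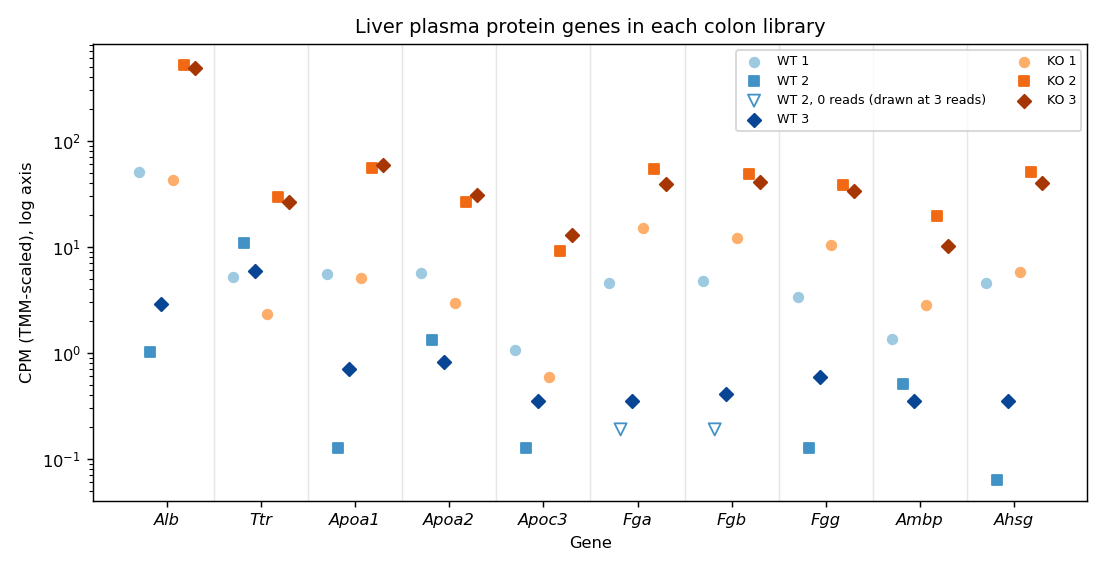
CPM of each gene (x axis) in each of the 6 libraries (points, y axis on a log scale); the open triangles are WT 2 with 0 reads for Fga and Fgb, drawn at the level of 3 reads. KO 2 and KO 3 are the highest libraries for every gene, WT 1 and KO 1 lie between them and the low libraries for most genes, and for Ttr KO 1 is the lowest library.

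Alb had 855, 16 and 49 reads across WT 1 to WT 3, against 872, 9131 and 6222 reads across KO 1 to KO 3. On the CPM scale its levels were 50.8, 1.01 and 2.89 under the wild-type label and 43.1, 522.3 and 483.5 under the knockout label. The labels overlapped, since KO 1 lay below WT 1, and the wild-type libraries themselves spanned 50.2-fold. The fitted log2 ratio of the knockout over the wild-type label was 4.26 ± 1.63 (SE).

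Ttr, which encodes the thyroid hormone and retinol carrier, had another order of libraries. Its gene lies on chromosome 18 (20665250 to 20674324, plus strand). It had 88, 173 and 101 reads across WT 1 to WT 3, against 47, 515 and 344 across KO 1 to KO 3, or 5.23, 11.0 and 5.96 CPM and 2.32, 29.5 and 26.7 CPM. WT 2, which had the fewest Alb reads, had the most Ttr among the wild-type libraries, and KO 1 had the least of all 6. Its log2 ratio was 1.40 ± 0.83 (SE), the smallest of the members (edgeR quasi-likelihood test with Benjamini-Hochberg adjustment over all 16861 genes, adjusted p = 0.342). Enteroendocrine and islet genes, markers of another possible source of Ttr, had a summed level of 755.5 to 1131 CPM under the wild-type label and 403.9 to 1075 CPM under the knockout label. The insulin genes Ins1 and Ins2, named after their values were seen, were at 0 reads in every library except KO 2 (3 reads each), and the part of such cells in the Ttr counts was not tested.

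Apoa1, the main protein of high-density lipoprotein, was at 5.59, 0.127 and 0.708 CPM across WT 1 to WT 3, against 5.09, 55.0 and 59.0 CPM across KO 1 to KO 3. KO 1 was at 0.911 times the level of WT 1, so the labels overlapped. The fitted log2 ratio was 4.20 ± 1.38 (SE).

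Apoa2, which encodes a second protein of that particle, was at 5.71, 1.33 and 0.826 CPM across WT 1 to WT 3, against 2.97, 26.3 and 31.1 CPM across KO 1 to KO 3. Apoc3, whose product slows the clearance of triglyceride-rich particles, was at 1.07, 0.127 and 0.354 CPM and at 0.593, 9.21 and 12.98 CPM in the same order. For both genes KO 1 lay below WT 1, and KO 3 was the highest library. Log2 ratios were 2.93 ± 1.04 (SE) for Apoa2 and 3.85 ± 1.19 for Apoc3 (edgeR adjusted p = 0.161 and 0.132).

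For fibrinogen the lowest library labelled knockout exceeded the highest labelled wild-type. Fga was at 4.58, 0 and 0.354 CPM across WT 1 to WT 3, against 15.1, 54.5 and 39.5 CPM across KO 1 to KO 3. Fgb was at 4.81, 0 and 0.413 CPM and at 12.1, 48.4 and 40.9 CPM in the same order. Fgg was at 3.39, 0.127 and 0.590 CPM and at 10.5, 38.7 and 33.9 CPM. For each chain every library labelled knockout exceeded every wild-type library, and KO 1 was the lowest of its label. The 0 reads of Fga and Fgb in WT 2 allow up to 0.19 CPM, the level of 3 reads, for counting error only. Log2 ratios were 4.46 ± 1.38 (SE) for Fga, 4.27 ± 1.39 for Fgb and 4.33 ± 1.09 for Fgg (edgeR adjusted p = 0.132, 0.141 and 0.105).

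The same held for Ambp and Ahsg. Ambp, which encodes the precursor of alpha-1-microglobulin and of the protease inhibitor bikunin, was at 1.37, 0.506 and 0.354 CPM across WT 1 to WT 3, against 2.82, 19.7 and 10.1 CPM across KO 1 to KO 3. Ahsg, which encodes fetuin-A, a protein that binds calcium phosphate, was at 4.52, 0.0633 and 0.354 CPM and at 5.83, 50.8 and 39.9 CPM. KO 1 stood just above WT 1 for Ahsg, by 1.29-fold, and 2.06-fold above it for Ambp. Log2 ratios were 3.86 ± 0.87 (SE) for Ambp and 4.28 ± 1.41 for Ahsg (edgeR adjusted p = 0.0983 and 0.144).

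**Figure D2:**
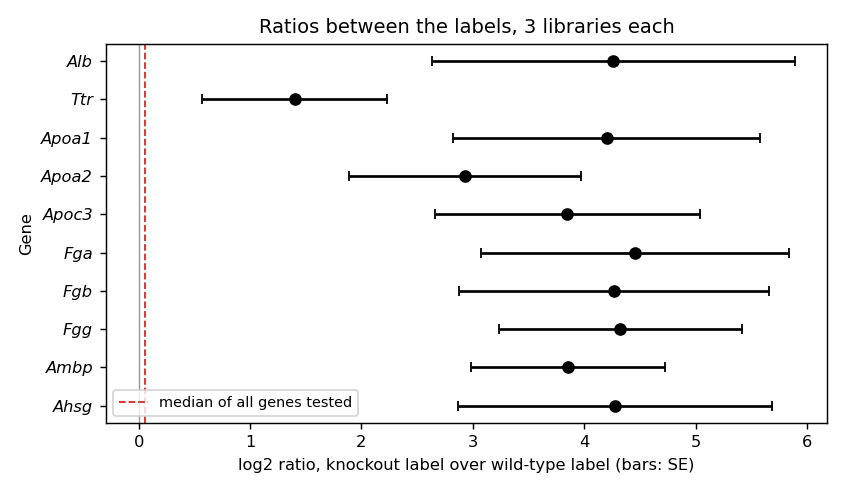
Fitted log2 ratio of the knockout over the wild-type label (x axis, bars are SE, 3 libraries per label) for each gene (y axis); the dashed line is the median of all genes tested, 0.061. All 10 ratios lie above that line, with Ttr lowest at 1.40, and none of the 8 tested genes (all but Alb and Apoa1) passed the adjusted threshold.

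None of the tested members passed the threshold between the labels. With edgeR 0 of the 8 members other than Alb and Apoa1 had an adjusted p under 0.05, as for 0% of all 16861 genes, and 7 of the 8 were higher at an unadjusted p under 0.05, against 11.8% of all genes in that direction and 24.1% in either. Ttr was the exception. The median log2 ratio of the 8 was 4.06, beside 0.061 for all genes. In 5 members the labels had no overlap, namely Fga, Fgb, Fgg, Ambp and Ahsg, against 15.0% of all genes in that direction and 32.3% in either. The set was chosen on its variation between these libraries, and 7 of its genes (all but Alb, Ttr and Apoa2) reached the filter's level in 3 libraries only under the knockout label, so the counts are a description. DESeq2 called 5 of the 8 higher (Apoa2, Apoc3, Fgg, Ambp and Ahsg), against 4.02% of its genes, and limma-voom with quality weights called 4 (Fga, Fgb, Fgg and Ambp), against 2.23%. Without WT 1 the log2 ratio of Ttr was 1.20 and those of the other members were higher, at 7.47 for Alb, 6.52 for Apoa1, 4.20 for Apoa2, 4.91 for Apoc3, 7.58 for Fga, 7.26 for Fgb, 6.21 for Fgg, 4.63 for Ambp and 7.19 for Ahsg. Without WT 3 the edgeR count at an unadjusted p under 0.05 fell from 7 to 2.

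Whether the members scaled together was read from their reads per 100 Alb reads, in the 4 libraries with at least 100 Alb reads (WT 1, KO 1, KO 2 and KO 3). Intervals are exact 95% intervals and cover counting error only, since reads without molecular identifiers are not independent molecules. Apoa1 kept nearly the same ratio to Alb in these libraries, at 11.0 reads per 100 Alb reads in WT 1 (interval 8.79 to 13.6), 11.8 in KO 1 (9.54 to 14.5), 10.5 in KO 2 (9.84 to 11.3) and 12.2 in KO 3 (11.3 to 13.2). The highest was 1.16-fold the lowest while Alb itself spanned 12.1-fold in CPM. The intervals of KO 2 and KO 3 lay just apart. Alb and Apoa1 are the 2 genes whose variation chose the set, so their shared course is a description only. Alb is also the denominator of every ratio below. In the libraries left out, Apoa1 gave 12.5 in WT 2 (1.39 to 53.2) and 24.5 in WT 3 (11.9 to 46.7).

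Fibrinogen did not keep 1 ratio. The 3 chains together gave 25.1 reads per 100 Alb reads in WT 1 (21.6 to 29.2), 27.1 in KO 2 (25.9 to 28.3) and 23.6 in KO 3 (22.3 to 25.0), but 87.5 in KO 1 (79.3 to 96.5). In the libraries left out, the chains together gave 12.5 in WT 2 (1.39 to 53.2) and 46.9 in WT 3 (27.3 to 78.5). KO 1 and WT 1 had nearly equal Alb reads, 872 and 855, yet 763 and 215 fibrinogen reads. Relative to Alb, KO 1 exceeded WT 1 by 3.90-fold for Fga, 2.97-fold for Fgb and 3.65-fold for Fgg. Among themselves the chains kept close shares: Fga took 40.1% of the fibrinogen reads in KO 1 (36.6 to 43.7), 38.5% in KO 2 (36.5 to 40.4), 34.5% in KO 3 (32.1 to 37.0) and 35.8% in WT 1 (29.4 to 42.6). Fgg took 26.5 to 29.6% in these libraries, with overlapping intervals.

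Ambp and Ahsg also stood highest in KO 1 relative to Alb. Ambp gave 6.54 reads per 100 Alb reads in KO 1 (4.91 to 8.55), 3.77 in KO 2 (3.37 to 4.20), 2.69 in WT 1 (1.70 to 4.06) and 2.09 in KO 3 (1.74 to 2.49). Ahsg gave 13.5 in KO 1 (11.1 to 16.4), 9.73 in KO 2 (9.07 to 10.4), 8.89 in WT 1 (6.94 to 11.3) and 8.26 in KO 3 (7.54 to 9.04). The steps were smaller than for fibrinogen, at 2.43-fold and 1.52-fold between KO 1 and WT 1, and for Ahsg the intervals of these libraries overlapped at their ends.

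Apoa2 and Ttr stood highest in WT 1 relative to Alb. Ttr gave 10.3 reads per 100 Alb reads in WT 1 (8.17 to 12.8) and 5.39, 5.64 and 5.53 across KO 1 to KO 3, where all 3 intervals overlapped. Apoa2 gave 11.2 in WT 1 (9.0 to 13.9), 6.88 in KO 1 (5.21 to 8.94), 5.03 in KO 2 (4.57 to 5.52) and 6.43 in KO 3 (5.80 to 7.11). Apoc3 ranged from 1.38 in KO 1 (0.708 to 2.42) to 2.68 in KO 3 (2.29 to 3.13). In the libraries with few Alb reads the ratios turned over. WT 2 had 173 Ttr and 21 Apoa2 reads beside 16 Alb reads, and WT 3 had 101 Ttr reads beside 49 of Alb. Ttr and Apoa2 reads were thus present in WT 2, where Fga and Fgb had 0 reads.

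**Figure D3:**
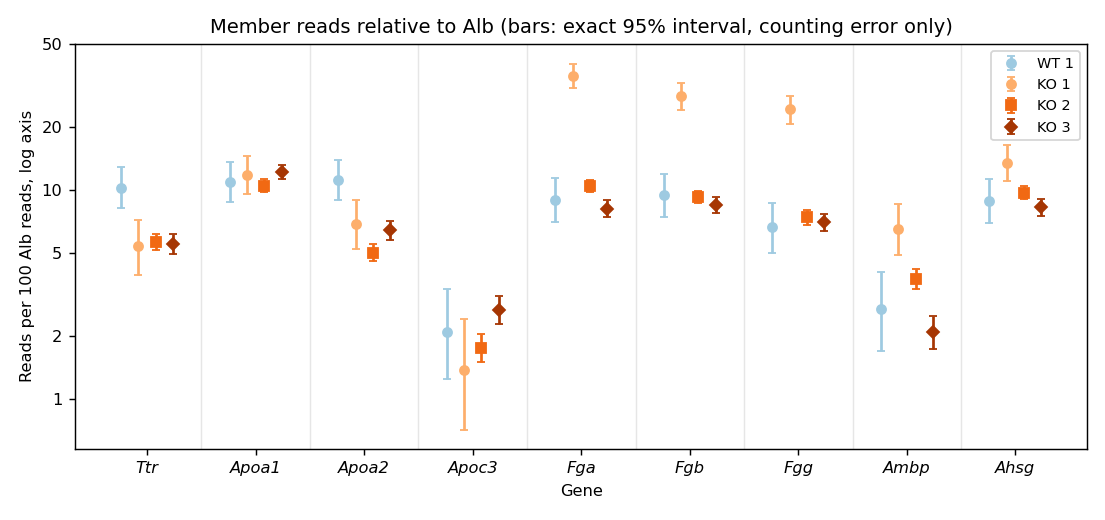
Reads of each gene per 100 Alb reads (y axis, log scale) in the 4 libraries with at least 100 Alb reads, with exact 95% intervals for counting error only. Apoa1 stays between 10.5 and 12.2 in all 4 libraries, Fga, Fgb and Fgg stand highest in KO 1, at 35.1, 28.1 and 24.3, and Ttr and Apoa2 stand highest in WT 1.

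Per length the members ranked in the order Alb, Apoa2, Apoa1, Ttr, Ahsg, Fgg, Fga, Fgb, Ambp and Apoc3. Mean levels over the 6 libraries were 78.5 CPM per kb of gene model for Alb, 21.2 for Apoa2 and 16.9 for Apoa1, down to 4.12 for Ambp, with Apoc3 just below it. This order rests on KO 2 and KO 3, where the levels were highest. In WT 2 and WT 3 Ttr was the highest member per kb, at 8.98 and 4.89 CPM per kb, against 0.432 and 1.23 for Alb. Apoa2 exceeded Apoa1 in 6 of 6 libraries. Alb exceeded Apoa2 in 4 of 6, and Ambp exceeded Apoc3 in 3 of 6. Of neighbours in that order, the mean difference was below its SD over libraries for Alb and Apoa2, Apoa1 and Ttr, Ttr and Ahsg, Ahsg and Fgg, Fgg and Fga, Fga and Fgb, Fgb and Ambp, and Ambp and Apoc3, so only Apoa2 and Apoa1 were apart by that measure.

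Most other genes for liver plasma proteins had the library order of the members. Of 43 genes on that list, 35 passed the filter, 34 of these had a positive log2 ratio (53.1% of all genes did) and the median was 3.89. At an unadjusted p under 0.05, 27 were higher and 1 was lower, and 0 passed the adjusted threshold. KO 2 and KO 3 were the highest and WT 2 and WT 3 the lowest libraries for 27 of the 35, an order found in 4.53% of all genes tested and in 9 of the 10 members. This order was defined after the values were seen. Some of the 35, such as Apoh, reached the filter's level only under the knockout label, which made a positive ratio likely beforehand. The counts of this list are therefore a description. Serpina3k, a serine protease inhibitor gene, was at 10.3, 0.190 and 0.826 CPM across WT 1 to WT 3, against 21.9, 80.4 and 87.3 CPM across KO 1 to KO 3. Apoh, which encodes a phospholipid-binding plasma protein, was at 0.190 to 0.416 CPM under the wild-type label and at 1.29, 11.5 and 11.0 CPM across KO 1 to KO 3. Apob, which colon epithelium also transcribes, had a ratio of the opposite sign, with 75.7 to 268.7 CPM under the wild-type label, against 13.7, 97.9 and 27.1 CPM.

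Part of that list also stood higher relative to Alb in KO 1. Of 27 listed genes with at least 10 reads in each of the 4 libraries, 20 stood higher relative to Alb in KO 1 than in WT 1, 5 of them by at least 2-fold, with a median of 1.32-fold. Itih4 and Itih3, genes of the inter-alpha-trypsin inhibitor heavy chain family, were 3.60-fold and 2.72-fold higher, and Serpina3k was 2.52-fold higher. The ratios of the members Apoa2, Apoc3 and Ttr were below 1, at 0.613, 0.654 and 0.524. Acute phase genes differed among themselves in KO 1. C3 was at 2171 CPM there, against 142.3 to 430.8 CPM under the wild-type label, and Orm2 was at 4.99 CPM against 0.119 to 0.354. Saa1, the listed gene with the highest mean, was at 162.4 CPM in KO 1, below the 1270 to 4354 CPM of the wild-type label. Of 22 listed genes tested, 21 had a positive log2 ratio and 0 passed with edgeR, where 14 were higher at an unadjusted p under 0.05, and the median deviation from the wild-type mean was 1.87 in KO 1, 2.05 in KO 2 and 2.67 in KO 3. Orm2 reached the filter's level only under the knockout label, so the counts of that list are a description. Il6, named after its values were seen, was highest in KO 3 at 508.3 CPM and at 42.7 CPM in KO 1. The part of these genes in the fibrinogen level was not tested.

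Genes for enzymes and receptors of hepatocytes had that order less uniformly, and the difference was not tested. Of 25 listed, 22 passed the filter, 18 were positive, 0 passed the adjusted test, and 13 were higher and 1 lower at an unadjusted p under 0.05 by edgeR, with a median log2 ratio of 2.96. The order with KO 2 and KO 3 highest and WT 2 and WT 3 lowest held for 11 of 22. Some of the 22, such as Gnmt, reached the filter's level in every library only under the knockout label, so these counts are a description. Cyp3a11, a drug-metabolising enzyme gene of liver, was at 3.39, 0.190 and 0.767 CPM across WT 1 to WT 3, against 3.01, 31.8 and 35.1 CPM across KO 1 to KO 3. Of 15 listed genes with enough reads for a ratio to Alb in WT 1, KO 1, KO 2 and KO 3, 2 stayed within a 2-fold range. Cyp3a11 had the narrowest range of them, 6.09 to 7.26 reads per 100 Alb reads, and Tat the widest, 2.23 to 252. Gnmt, a methyltransferase gene, was at 0.253 to 1.49 CPM under the wild-type label and at 2.22, 8.46 and 11.2 CPM. Summed over the list the levels were 299.5 to 440.9 CPM under the wild-type label and 228 to 531.3 CPM under the knockout label, a sum led by Ass1, Tat, Pck1 and Cyp2e1. Listed genes with 0 reads numbered 1, 5 and 5 across WT 1 to WT 3, against 0 in each library labelled knockout. The part of hepatocyte RNA in the member counts was not tested.

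Transcription factors of liver genes had a negative median ratio. Hnf4a, the hepatocyte nuclear factor that colonocytes also use, was at 491.1, 810.9 and 559.3 CPM across WT 1 to WT 3, against 36.2, 199 and 4.27 CPM across KO 1 to KO 3. Cebpb and Cebpd, factors of the acute phase response, had levels of 606.1, 483 and 1175 CPM and of 1353, 1186 and 1011 CPM across KO 1 to KO 3. Both were above all wild-type libraries, which reached 326.3 and 655 CPM. Of the 20 regulators tested, 0 passed and the median log2 ratio was -1.88, with 4 higher and 9 lower at an unadjusted p under 0.05 by edgeR (12.3% of all genes were lower at that p). Absorptive colonocyte genes were lower beside them: 0 of 19 tested had a positive ratio, 10 were lower at an unadjusted p under 0.05, 0 passed, and the median was -2.84. Their part in the regulators' values was not tested.

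**Figure D4:**
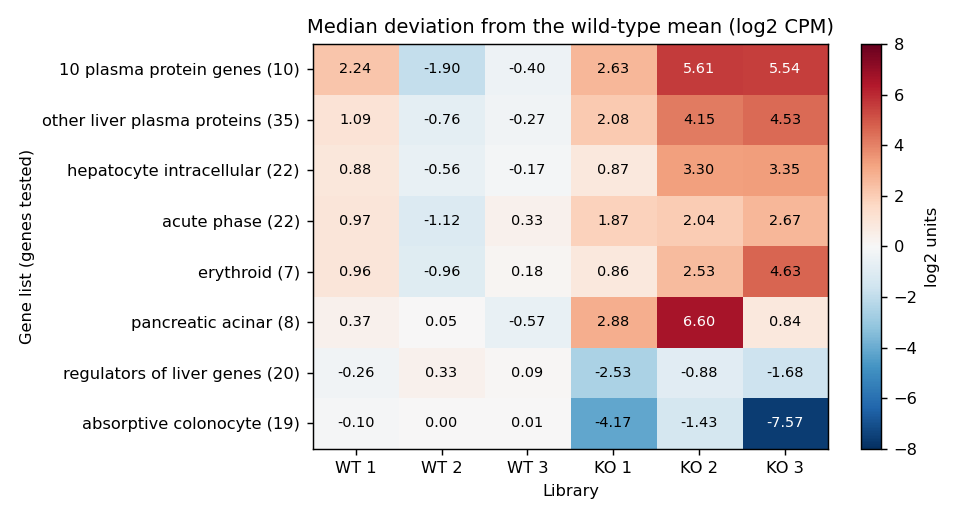
Median deviation from the wild-type mean, in log2 CPM, of each gene list (rows, with the number of genes tested) in each library (columns). The 10 plasma protein genes, the other liver plasma protein genes and the hepatocyte enzyme genes are highest in KO 2 and KO 3, acinar genes are at 6.60 in KO 2 and 0.84 in KO 3, and colonocyte genes are lowest in KO 3.

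Of the markers of other organs and of blood, erythroid genes had the members' library order in most cases and acinar genes did not. Pancreatic acinar genes, summed over 20 listed genes, were at 136.8 to 460.4 CPM under the wild-type label and at 179.7, 2769 and 17.5 CPM across KO 1 to KO 3. Cela1 led the wild-type sum, at 158.8, 444.9 and 125 CPM across WT 1 to WT 3, against 20.6 CPM in KO 1. The median deviation of the 8 acinar genes tested was 2.88 in KO 1, so the sum hides a higher level of most of them there. The lipase gene Pnlip was at 0 to 0.119 CPM under the wild-type label, and the values from KO 1 to KO 3 were 16.6, 223.7 and 0.699 CPM. In KO 3, whose summed member level was near that of KO 2, 9 of the 20 acinar genes had 0 reads. The order with KO 2 and KO 3 highest and WT 2 and WT 3 lowest held for 0 of 8 acinar genes tested, 5 of 7 erythroid genes and 3 of 5 platelet genes. Erythroid genes summed to 164.4, 52.7 and 90.9 CPM for WT 1 to WT 3, with 167.6, 595.2 and 2674 CPM for KO 1 to KO 3, while the summed member level was 854.2 CPM in KO 2 and 777.7 CPM in KO 3. Summed small intestinal enterocyte genes were lower in the libraries labelled knockout, at 194.8 to 283.6 against 678.3 to 733.2 CPM. The peptide transporter gene Slc15a1 had 1039 reads in KO 2 and 7 in KO 3. Of 15 tested, 12 had a negative and 3 a positive log2 ratio, and 1 had the members' library order. That gene was Fabp1, named after its values were seen, which hepatocytes also transcribe. Fabp1 had 27, 0 and 4 reads across WT 1 to WT 3, against 19, 277 and 223 across KO 1 to KO 3. The part of these cell types in the member counts was not tested.

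Partner genes of the plasma proteins had smaller median ratios. Of 20 tested genes of fibrin formation and lysis, 19 were positive with a median log2 ratio of 1.62, and 13 were higher at an unadjusted p under 0.05 by edgeR, with 0 past the adjusted threshold. F2, the prothrombin gene of liver, was at 0.118 to 0.357 CPM under the wild-type label and at 0.889, 11.7 and 12.4 CPM across KO 1 to KO 3. It reached the filter's level only under the knockout label, so the counts of that list are a description. The albumin recycling receptor gene Fcgrt was at 102.5 to 120.3 CPM under the wild-type label and at 78.3 to 108.5 CPM under the knockout label, and 7 tested genes of that list had a median of 0.48. The median was 0.52 over 17 lipoprotein partner genes. It was 0.89 over 11 partners of transthyretin, where Dio1, a deiodinase gene, was at 15.6, 105.9 and 31.3 CPM across WT 1 to WT 3, against 0.148, 1.77 and 0.544 CPM across KO 1 to KO 3. Among 14 tested partners of the Ambp and Ahsg products the median was 1.04, and Mgp, an inhibitor of calcification, was at 122.1 to 376.8 CPM and at 1058 to 1415 CPM. None of these genes passed the adjusted threshold of edgeR, and the lowest adjusted p among them was 0.094.

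The genes with the most similar course over the 6 libraries differed between members. By Pearson correlation of log2 CPM over 15822 genes, and as a description from 6 libraries that share depth and composition, the closest to Alb were Isy1, Gc and Saa2 (0.994 to 0.995). Gc encodes the vitamin D carrier of plasma and Saa2 a serum amyloid. Those closest to Apoa1 were Isy1, Serpina1a and Cyp3a11 (0.997 to 0.999), and those closest to Ahsg were Gc, Pzp and Plg (0.995 to 0.998). For Fgb they were Bnip2, Serpina3k and Ramp3 (0.996 to 0.999). For Ttr they were Ggnbp1, Mrpl48 and Lsm4 (0.986 to 0.997). None of the 3 closest genes was on a liver list for Ttr, Apoc3, Ambp or Fgg. Of the genes compared, 15 reached 0.99 with Alb, 2 with Ttr and 2 with Apoc3.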

How the data were processed

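Gene counts from poly-A RNA sequencing of 6 distal colon libraries were used as the authors deposited them, whole-number read counts per gene in 1 table, with the gene length in bases as a further value the authors deposited. Adaptors, poly-N reads and reads of low quality had been removed, per the labels' protocols. The submitters' processing notes list featureCounts 1.5.0-p3, HISAT2 2.0.5, DESeq2 and StringTie 1.3.3b without saying what each did, and the builds GRCm38 and mm10. No annotation release, strand setting or rule for reads with several matches is given in the sources used here. Of 54495 identifiers found in GENCODE M21 (GRCm38), 98.3% had the same start and end, among them 9 of the 10 members.

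The main test ran in edgeR 4.0.16 under R 4.3.3: filterByExpr (minimum count 10, minimum total 15, leaving 16861 genes), TMM scaling, and the robust quasi-likelihood test without covariates, with Benjamini-Hochberg adjustment over all genes and a threshold of 0.05. Log2 CPM used a prior count of 2. The test was also run on simulated counts with 1 dispersion (spread between libraries) of 0.05 for all genes. That value was not matched to these libraries, so the run does not show how the test performs at their spread. Alternatives used DESeq2 1.42.0, limma 3.58.1, other scalings and filters, a replicate block and each library left out. Depth was 13326970 to 18321389 counts per library. Within a label, library pairs gave chi-square values of 50.7 to 253.4 per degree of freedom, and each library was counted once. Intervals are exact Clopper-Pearson intervals at 95%.

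The members and gene lists were chosen with earlier results of these data known. Listed genes that passed the filter through a single label were likely to have a ratio towards it, so list counts are a description. All members are named. From each list the 4 genes with the highest mean CPM and the 3 with the smallest p could be named, and for each member the 3 genes (mean of at least 1 CPM) with the closest course. Other genes are said to be named after their values were seen. Promoter windows came from RefSeq (GRCm38.p6), whose table held 8 of the 10 members. Some genes on the lists and 1 planned motif are not reported here.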

Additional observations from a re-analysis of the deposited data

How the results depend on the processing

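The number of genes called between the labels was 0 with edgeR, where 4059 had an unadjusted p under 0.05, and also 0 with RLE or upper-quartile scaling, limma-voom, and at least 10 reads in every library. It was 192 with no filter on low counts (29 higher under the knockout label), 2029 with DESeq2 (779 higher), 1395 with limma-voom with quality weights (376 higher) and 3 with the replicate block. Leaving out each library in turn gave 0 to 1813 genes, the highest without KO 2. Of the 8 members other than Alb and Apoa1, 0 were called except by DESeq2 (5) and limma-voom with quality weights (4). The count of these members higher at an unadjusted p under 0.05, whose alternatives were chosen after seeing the data, went from 7 to 4 with no filter, to 1 with at least 10 reads in every library, where only 2 of the 8 were tested, and to 4 with the replicate block. Leaving out each library gave 2 (without WT 3) to 8 (without KO 1). Deviations from the label mean correlated at -0.201, 0.0866 and -0.0753 between same-numbered libraries, and at -0.171 to 0.34 between the others. With 3 libraries per label these values cannot show whether the replicate numbers mark pairs. No log2 ratio changed sign. The ratio of Ttr ran from 0.058 (quality weights) to 1.94 (without KO 1). Low reads in WT 2 and WT 3 limit every ratio to Alb there. The causes were not tested.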
